A study of Mus musculus with 6 samples.

Results

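Translation initiation and elongation factors are the proteins that bring a ribosome to the start codon of an mRNA and then move it along the message. Their genes were chosen by name: every protein-coding gene whose symbol begins with Eif1 to Eif6 or with Eef1 or Eef2, leaving out the eIF2 kinase genes (Eif2ak) and the cap-binding genes Eif4e, Eif4e1b and Eif4enif1. The rule used no measured value. It gave 75 genes of the 25731 in the table, of which 16159 were protein coding. Split by factor number, 19 belonged to eIF1, 11 to eIF2 with its exchange factor eIF2B, 14 to eIF3, 14 to eIF4, 4 to eIF5, 1 to eIF6, 9 to eEF1 and 3 to eEF2. The names are not all a guide to function, because some of these genes encode enzymes or binding partners of a factor and not the factor itself.

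The RNA came from mouse zygotes, wild-type B6C3F1 oocytes fertilized by CD1 males, in 6 pools of 13. Each zygote was injected 15 h after hCG with a mixture of mCherry-Trim21 mRNA, at 0.2 mg/mL, and a tracer, Oregon green dextran, at 0.02 mg/mL. In ZP3 Trim-away (3 pools) the cocktail also held anti-ZP3 antibody at 1 mg/mL, which TRIM21, a ubiquitin ligase that binds antibodies, sends to the proteasome together with its target. In ZP3 no Trim (3 pools) the buffer of the antibody took its place, so that both groups carried the Trim21 mRNA and the dextran, and all pools were collected 10 h after injection at the pronuclear stage. The labels give each pool a number but not its origin, and nothing says that the pools were collected apart. The p-values therefore speak for the variation among these 6 pools, part of which may be technical. In pooled RNA, fewer cells of a type and less RNA per cell cannot be told apart.

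A zygote is nearly silent in transcription at first and lives on the mRNAs and ribosomes stored in the oocyte. Initiation begins when eIF2, loaded with GTP and the initiator tRNA, joins the small ribosomal subunit together with eIF1, eIF1A, eIF3 and eIF5, and the eIF4 factors bring this complex to the capped end of an mRNA. The complex then scans to a start codon, eIF5B joins the large subunit, and in elongation eEF1 delivers the aminoacyl-tRNAs while eEF2 moves the ribosome one codon on.

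The deposited unit was RPKM, that is, reads scaled to the exon length of a gene and to the reads of its library, so levels can be set beside each other between genes. The deposited columns of ZP3 no Trim replicates 2 and 3 behaved as means of replicate 1 and a further library each, and the values given here come from the libraries after separation. Library totals, calculated back from the RPKM values and exon lengths, were 15291034 to 15746681 reads in ZP3 Trim-away and 17378261 to 20005730 in ZP3 no Trim. Genes listed above 0 numbered 18794 to 20316 in ZP3 Trim-away libraries and 13202 to 14501 in ZP3 no Trim libraries. Trim21, which the injected mRNA encodes, took 9.12 to 10.99% of the reads in ZP3 Trim-away and 14.6 to 18.1% in ZP3 no Trim. All 10 genes of an oocyte and zygote marker list were present in each library, with a summed level of 10151 to 11787 RPKM in ZP3 Trim-away and 7570 to 9121 RPKM in ZP3 no Trim. Of 10 cumulus and granulosa cell markers, 8 were in the table and 4 reached 1 RPKM in any library. Their summed level was 9.23 to 20.7 RPKM in ZP3 Trim-away and 0 to 8.41 RPKM in ZP3 no Trim. Cyp11a1, Amhr2, Fshr and Foxl2 were listed at 0 in every ZP3 no Trim library, as were 28.9% of all genes in the table. Amhr2, Fshr and Foxl2 were also at 0 in some ZP3 Trim-away libraries. Only Tnfaip6 and Cyp11a1 were higher in every ZP3 Trim-away library than in any ZP3 no Trim library. Star and Has2 overlapped between groups, and Inhba was highest in ZP3 no Trim replicate 1. Of 5 blood and immune cell markers, 2 were in the table, with a summed level of 0.997 to 4.96 RPKM in ZP3 Trim-away and 0 in every ZP3 no Trim library. Of 8 sperm markers, 5 were in the table (summed level 1.58 to 2.23 RPKM in ZP3 Trim-away and 2.44 to 7.77 RPKM in ZP3 no Trim), and of 5 oviduct markers 3 were (2.10 to 5.71 RPKM in ZP3 Trim-away and 1.88 to 3.49 RPKM in ZP3 no Trim). The part of these differences in the results below was not tested.

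The start codon context of a transcript is where several of these factors act, and for a few of them it is also how they are known to control themselves. A purine at the third base before the ATG and a G right after it make a start codon strong. In human cells eIF1, which makes the scanning ribosome strict, is known to limit its own synthesis through the weak context of its start codon. eIF5, which makes it lenient, is known there to limit its own through ATGs in weak context upstream. The windows below hold 10 bases before the start codon and 7 after it, 5′ to 3′, from the GENCODE M21 transcripts (build GRCm38), with the start codon in capitals. They are shown for the start-site factors and for the elongation genes that the results turn on.
Eif1: atcgtatcgtATGtccgcta
Eif1b: ctagtgtcgcATGtccacta
Eif1ax: ctttgcggccATGcccaaga
Eif5: ataagccaaaATGtctgtca
Eef1e1: gggccagaagATGgcggcgg
Eef1a1: caaagcaaaaATGggaaagg
Eef2: atccgccaccATGgtgaact

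Of the 66 genes with such a window, 31 (47.0%) had both the purine and the G, 29 had the purine alone, 2 had the G alone and 4 (6.06%) had neither. Eif1 and its paralog Eif1b were among those 4, with Eif3b and Eef1akmt1. Over all 15721 protein-coding genes with a window, 44.0% had both and 6.67% had neither. An upstream ATG lay in the leader of 25 of the 66 (37.9%), beside 52.8% of all these genes. Eif5 had 5 upstream ATGs in a leader of 626 bases, and none of them had the purine or the G. They are printed here in the same form, with the upstream ATG in capitals and named by how many bases before the start codon it lies.
Eif5, 543 before: atcgacgtgcATGcgagcca
Eif5, 533 before: atgcgagccaATGacaagag
Eif5, 230 before: cgttgggtttATGtctttat
Eif5, 122 before: aaattttttcATGtcagaga
Eif5, 90 before: gcagtcgtttATGtcatccc
Eif1 had 1 upstream ATG in a leader of 245 bases, and Eif1ax, Eif1b and Eef1e1 had 0. These are features of the reference transcripts and say nothing of how often a zygote uses each of them.

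The groups were compared with limma on log2(RPKM + 1) over the 9965 genes that averaged 1 RPKM or more, with p-values adjusted over all of them. Of the 75 genes, 52 were tested. One passed: Eef1e1, in a background of 0.632% of all tested genes called (63 of 9965; 0.592% higher and 0.0401% lower). The remaining 23 lay under the minimum, and among them no library value was above 2.71 RPKM. At an unadjusted p under 0.05, 14 of the 52 were higher in ZP3 Trim-away and 3 were lower, beside 15.8% higher and 3.7% lower among all tested genes. Of the 52, 5 reached the minimum mean through ZP3 Trim-away only and 0 through ZP3 no Trim only (700 and 356 of all tested genes), and 3 of the 14 were among the 5 (Eif3b, Eef1g and Eef1akmt1), so that they could enter only where ZP3 Trim-away was higher. This split depended on the scaling: it was 7 higher and 6 lower with median ratio scaling and with quantile normalization, 9 and 4 with Trim21 left out of the totals, and 4 and 4 with the trend of fold change on exon length removed. The median log2 fold change was 0.26 over the 52 genes and 0.22 over all tested genes, so the 2 medians lay 0.04 apart. Median ratio scaling brought the median of all genes to 0.05. Of the 52 genes, 40 (76.9%) had a positive log2 fold change, as did 67.3% of all tested genes. The 5 genes that reached the minimum mean through ZP3 Trim-away only are among the 40. The 3 ZP3 Trim-away libraries lay wholly above the 3 ZP3 no Trim libraries for 18 of the 52 and wholly below for 5, together 44.2%, beside 20.3% above and 6.34% below among all tested genes. After median ratio scaling they lay wholly above for 10 and wholly below for 8, beside 12.4% above and 11.8% below among all tested genes. Eif3b and Eef1akmt1, which reached the minimum through ZP3 Trim-away only, are among the 18 and among the 10. Among genes averaging 10 RPKM or more the share without overlap was 15 of 27 (55.6%), beside 37.7% of all genes at that level. The 15 include Eif1ax, which met that level through ZP3 Trim-away only. Such genes could enter only where ZP3 Trim-away was higher, so the counts that hold them are no support for a difference.

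**Figure D1:**
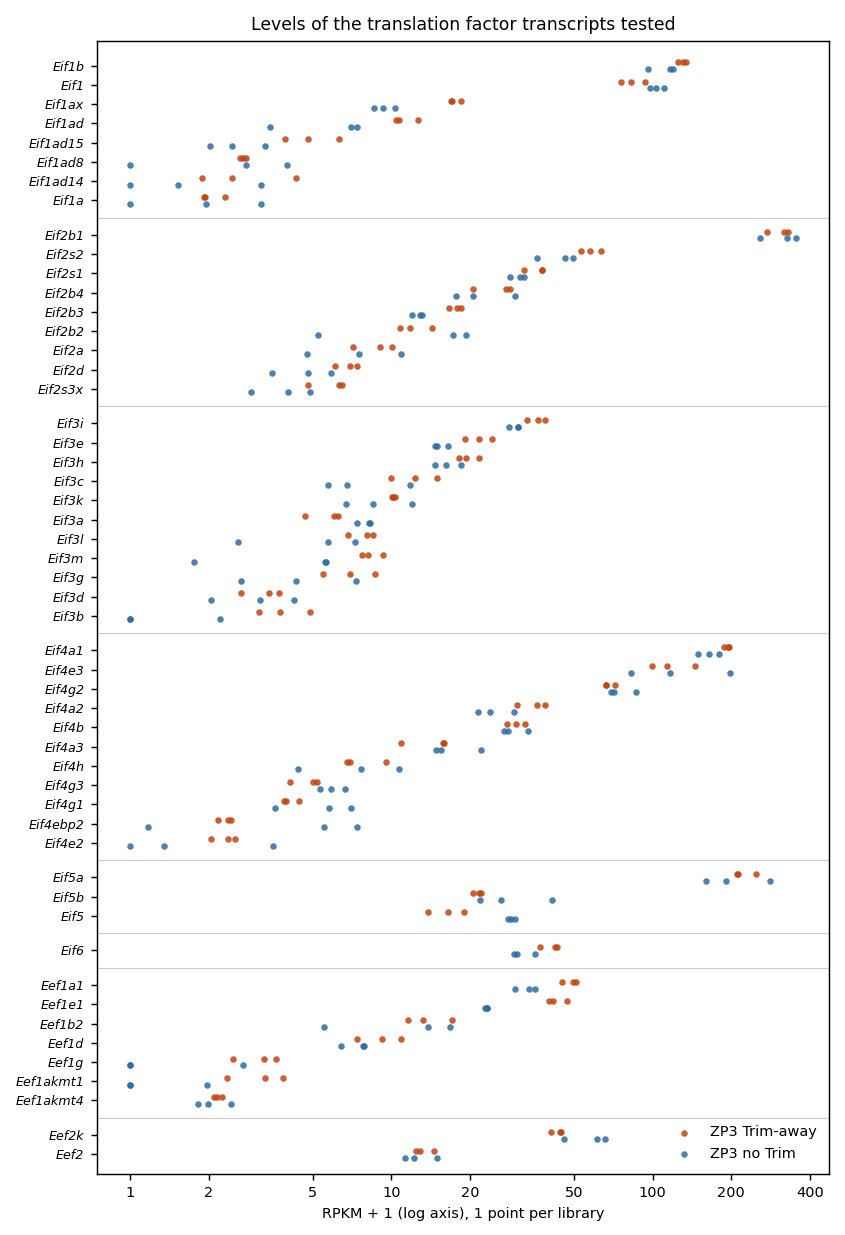
Level of each of the 52 tested genes in every library, as RPKM + 1 on a log axis, with ZP3 Trim-away above ZP3 no Trim in each row and lines between the groups of factors. The highest rows are Eif2b1, Eif5a and Eif4a1, and the spread of the points is wider in the low genes, several of which have ZP3 no Trim libraries at 0.

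Levels covered a wide range. Eif2b1 had the highest mean (309 RPKM over the 6 libraries), followed by Eif5a (216), Eif4a1 (178), Eif4e3 (125) and Eif1b (119), while Eif2s3y, the Y-linked copy of the eIF2 gamma subunit, and Eif3f were close to 0. The subunits of one complex were not at one level: the eIF3 genes ran between 0.0293 RPKM for Eif3f and 31.9 RPKM for Eif3i. The spread between pools was smaller in ZP3 Trim-away than in ZP3 no Trim, with a median SD over the 52 genes of 0.15 in ZP3 Trim-away and 0.37 in ZP3 no Trim on the log2 scale. Over all tested genes it was 0.20 in ZP3 Trim-away and 0.44 in ZP3 no Trim.

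**Figure D2:**
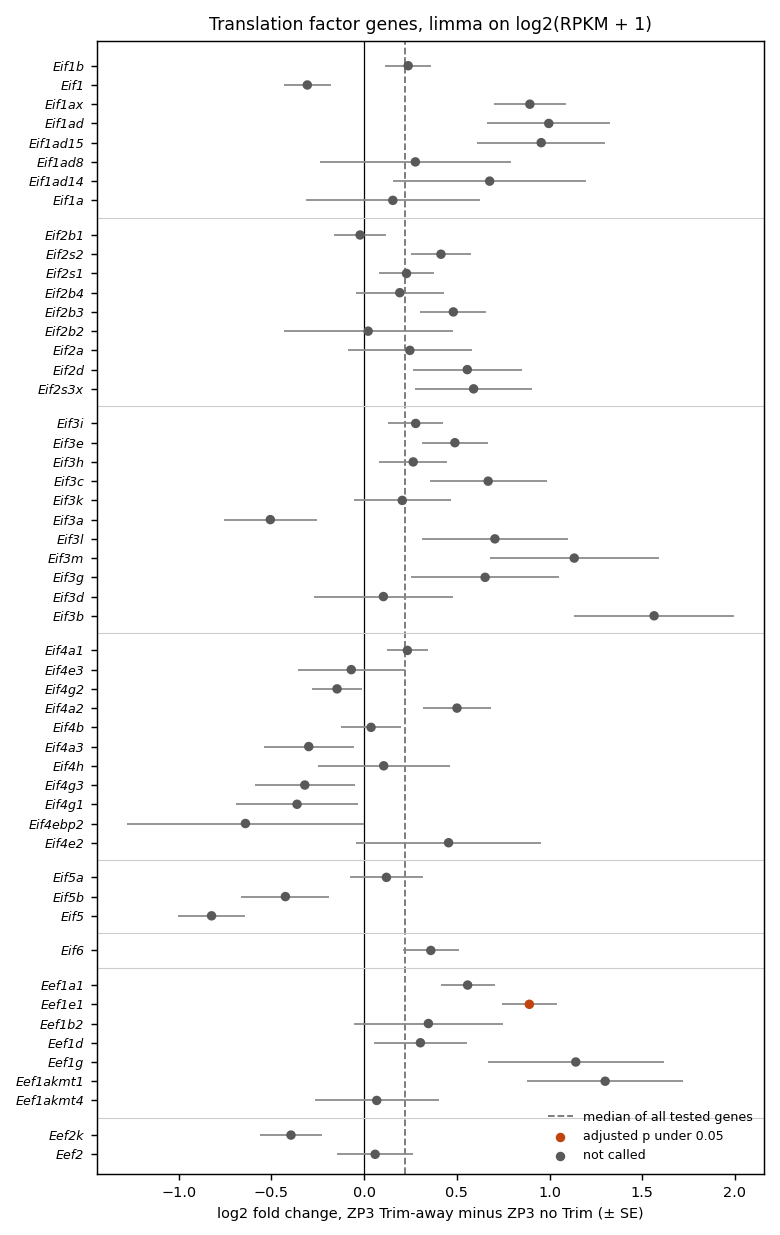
Log2 fold change of each of the 52 tested genes (ZP3 Trim-away minus ZP3 no Trim, on log2(RPKM + 1), with the standard error), in the order of the plot of levels, with a dashed line at the median of all tested genes (0.22). Eef1e1 is the one gene past the adjusted threshold. All 7 eEF1 genes lie above 0 (6 of 7 with median ratio scaling), but Eef1g and Eef1akmt1 reached the minimum mean through ZP3 Trim-away only. Eif5 (-0.82), Eif4ebp2 (-0.64) and Eif3a (-0.51) lie farthest below 0.

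Eif1ax encodes eIF1A, which works with eIF1 in scanning. It had 17.5, 15.9 and 16.1 RPKM in ZP3 Trim-away, against 9.36, 7.59 and 8.33 RPKM in ZP3 no Trim. Every ZP3 Trim-away pool was above every ZP3 no Trim pool, by a log2 fold change of 0.89 ± 0.19 (SE), and the gene did not pass (limma adjusted p = 0.0634). Eif5, the activator of GTP hydrolysis by eIF2, had 15.5, 12.8 and 17.99 RPKM in ZP3 Trim-away, against 28.6, 27.7 and 27.1 RPKM in ZP3 no Trim. Here the groups separated the other way, with a log2 fold change of -0.82 ± 0.18 (limma adjusted p = 0.066), the most negative of the 52. Both values rest on many reads, 4059 in ZP3 Trim-away and 2477 in ZP3 no Trim for Eif1ax, and 4904 in ZP3 Trim-away and 10603 in ZP3 no Trim for Eif5. Eif5 passed when testing was limited to genes averaging 10 RPKM or more, at limma adjusted p = 0.0314, in a background of 10.6% called (9.02% higher and 1.62% lower). Eif1ax was called there too (0.035), but it met that minimum only through ZP3 Trim-away, with a mean of 16.5 RPKM in ZP3 Trim-away and 8.43 RPKM in ZP3 no Trim, so this call is no support for its difference. With the columns as deposited 22 of 51 genes passed, in a background of 37.3%. Under every setting tried the log2 fold change stayed between 0.71 and 0.96 for Eif1ax and between -1.01 and -0.70 for Eif5.

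Eif1 and Eif1b encode near-identical eIF1 proteins and were at similar levels, and as measured their libraries lay in opposite order. Eif1 had 82.0, 74.4 and 92.9 RPKM in ZP3 Trim-away, against 102, 96.6 and 109 RPKM in ZP3 no Trim, a log2 fold change of -0.31 ± 0.13 (limma adjusted p = 0.235). Eif1b had 124, 133 and 130 RPKM in ZP3 Trim-away, against 94.8, 116 and 119 RPKM in ZP3 no Trim, a log2 fold change of 0.24 ± 0.12 (limma adjusted p = 0.336). For Eif1b this became 0.039 with median ratio scaling, 0.048 with quantile normalization and -0.16 with the length trend removed. Neither passed. The pools of Eif1 did not overlap between groups before or after median ratio scaling, while those of Eif1b did not overlap as measured and overlapped after it. Of the windows of 72 bases (the read length) in the transcripts of Eif1, 15.7% also occurred in other genes, so part of its reads may have been left out or placed elsewhere by the counting.

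Ratios within a library do not depend on the library total. The ratio of Eif1b to Eif1 was 1.51, 1.79 and 1.401 in ZP3 Trim-away, against 0.930, 1.20 and 1.09 in ZP3 no Trim. That of Eif1ax to Eif5 was 1.13, 1.25 and 0.893 in ZP3 Trim-away, against 0.327, 0.275 and 0.308 in ZP3 no Trim, the widest separation of the 8 ratios computed. That of Eif1 to Eif5 was 5.30, 5.83 and 5.16 in ZP3 Trim-away, against 3.56, 3.49 and 4.04 in ZP3 no Trim. None of the 3 ratios overlapped between groups, and each had a two-sided exact permutation p of 0.1, the smallest that 3 against 3 allows (0.2 after adjustment over the 8 ratios). Of the others, Eef1a1 to Eef2 also reached that p, and Eif4a2 to Eif4a1, Eif2s2 to Eif2s1, Eif2b1 to Eif2b4 and Eif2s1 to Eif2s3x overlapped, at exact permutation p = 0.3, 0.4, 0.6 and 0.2 (adjusted 0.4, 0.457, 0.6 and 0.32). The ratios were chosen after the values of these genes had been seen, so their lack of overlap and their p-values are no support for a difference. The adjustment over the 8 ratios does not cover that choice.

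The other eIF1 genes were lower in level. Eif1ad, an eIF1A domain gene, had 9.69, 9.45 and 11.6 RPKM in ZP3 Trim-away, against 2.43, 6.39 and 5.998 RPKM in ZP3 no Trim, a log2 fold change of 1.00 ± 0.33 (limma adjusted p = 0.154). Its pools did not overlap between groups, and 12.2% of its windows of 72 bases also occurred in Banf1. The 14 numbered copies (Eif1ad2 to Eif1ad18), all on chromosome 12, were close to the floor: 11 of them were not tested, and 5 were listed at 0 in all 3 ZP3 no Trim libraries. The share of their windows that also occurred in other genes ran between 8.52% for Eif1ad15 and 100% for Eif1ad10, so the values of the copies with much shared sequence are uncertain. Of the copies tested, Eif1ad15 was the highest, with 3.80, 5.31 and 2.92 RPKM in ZP3 Trim-away, against 1.45, 2.29 and 1.02 RPKM in ZP3 no Trim (limma adjusted p = 0.181). Across the 75 genes, 8 were listed at 0 in every ZP3 no Trim library and 1 (Eif2s3y) in every ZP3 Trim-away library, beside 28.9% of all genes in the table at 0 in every ZP3 no Trim library.

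eIF2 carries the initiator tRNA, and its exchange factor eIF2B reloads it with GTP. Of their 9 tested genes 8 had a log2 fold change above 0, beside 67.3% of all tested genes, the median was 0.25, close to that of all genes (0.22), and none passed (limma; 2 higher at an unadjusted p under 0.05, beside 15.8% of all tested genes). Eif2s2, the beta subunit, had 56.3, 62.6 and 52.2 RPKM in ZP3 Trim-away, against 35.1, 45.0 and 48.4 RPKM in ZP3 no Trim (log2 fold change 0.41 ± 0.16, limma adjusted p = 0.21). Eif2s1, the alpha subunit that the stress kinases phosphorylate, had 36.7, 36.6 and 31.2 RPKM in ZP3 Trim-away, against 30.0, 31.1 and 27.5 RPKM in ZP3 no Trim (0.23 ± 0.15, limma adjusted p = 0.443). Neither subunit overlapped between groups as measured, and both did after median ratio scaling, where the log2 fold change of Eif2s1 was 0.034 (0.071 with quantile normalization). Eif2s3x, the X-linked gamma subunit, was much lower, at 5.31, 3.79 and 5.46 RPKM in ZP3 Trim-away and 1.91, 3.03 and 3.88 RPKM in ZP3 no Trim (0.59 ± 0.32, limma adjusted p = 0.346). Its groups overlapped, and 34.2% of its windows also occurred in other genes.

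The 5 subunits of eIF2B were far from equal. Eif2b1, the regulatory alpha subunit, had 316, 328 and 273 RPKM in ZP3 Trim-away and 326, 257 and 353 RPKM in ZP3 no Trim. This put it above 98.9% of all tested genes in both groups together, with overlapping pools and a log2 fold change of -0.02 ± 0.14 (limma adjusted p = 0.948) whose sign turned when some single pools were left out. The other subunits were at least 10 times lower in mean. Eif2b3, of the catalytic part, had 17.6, 16.8 and 15.6 RPKM in ZP3 Trim-away, against 11.8, 11.04 and 12.1 RPKM in ZP3 no Trim, with no overlap (0.48 ± 0.18, limma adjusted p = 0.19). Eif2b4 averaged 24.5 ± 4.29 RPKM in ZP3 Trim-away and 21.6 ± 6.32 RPKM in ZP3 no Trim, and Eif2b2 averaged 11.3 ± 1.84 RPKM in ZP3 Trim-away and 12.9 ± 7.57 RPKM in ZP3 no Trim (SD, n = 3 each). Eif2b5, the catalytic subunit itself, was under the minimum, at 0.808, 1.49 and 0.252 RPKM in ZP3 Trim-away and 0, 2.70 and 0 RPKM in ZP3 no Trim. No window of 72 bases of Eif2b1 or of Eif2b5 occurred in another gene. Eif2a, which is not an eIF2 subunit but a separate carrier of initiator tRNA, and Eif2d, a factor of reinitiation, were each under 10 RPKM in mean. Eif2a averaged 7.76 ± 1.51 RPKM in ZP3 Trim-away and 6.72 ± 3.05 RPKM in ZP3 no Trim, and Eif2d averaged 5.81 ± 0.650 RPKM in ZP3 Trim-away and 3.72 ± 1.19 RPKM in ZP3 no Trim.

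eIF3 is the large scaffold that holds the other factors on the small subunit. The log2 fold change was above 0 in 10 of its 11 tested genes, beside 67.3% of all tested genes, and none passed (limma). The median was 0.49, beside 0.22 over all tested genes. At an unadjusted p under 0.05 (limma), 3 were higher, beside 15.8% of all tested genes. Eif3b, among the 3, reached the minimum mean through ZP3 Trim-away only, so it could enter only where ZP3 Trim-away was higher. It also counts among the 10 and in the median. With median ratio scaling 9 of the 11 were above 0, and with the length trend removed 7 were. The summed level of all 14 eIF3 genes, tested or not, was 120, 136 and 125 RPKM in ZP3 Trim-away, against 98.1, 91.6 and 97.4 RPKM in ZP3 no Trim. The sums did not overlap between groups, also after median ratio scaling (108 to 123 in ZP3 Trim-away and 93.7 to 105 in ZP3 no Trim). Eif3i had 31.9, 37.8 and 35.6 RPKM in ZP3 Trim-away, against 29.6, 29.4 and 27.1 RPKM in ZP3 no Trim (0.28 ± 0.15, limma adjusted p = 0.344), and Eif3e had 20.6, 23.3 and 18.1 RPKM in ZP3 Trim-away, against 13.9, 13.7 and 15.5 RPKM in ZP3 no Trim (0.49 ± 0.18, limma adjusted p = 0.187). The pools of both did not overlap as measured, and those of Eif3i overlapped after median ratio scaling (log2 fold change 0.083).

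Eif3b and Eif3a encode the pair of subunits around which the complex is built, and their pools were ordered in opposite ways. Eif3b had 2.11, 3.90 and 2.76 RPKM in ZP3 Trim-away, against 0, 1.21 and 0 RPKM in ZP3 no Trim (1.56 ± 0.43, limma adjusted p = 0.103). Without ZP3 no Trim replicate 2, its only ZP3 no Trim library above 0, the adjusted p was 0.0442, a call that follows from leaving 0 in both remaining ZP3 no Trim libraries. Eif3a had 5.01, 5.26 and 3.66 RPKM in ZP3 Trim-away, against 7.19, 6.41 and 7.28 RPKM in ZP3 no Trim (-0.51 ± 0.25, limma adjusted p = 0.311). Neither gene overlapped between groups. Eif3f was listed at 0.11, 0.066 and 0 RPKM in ZP3 Trim-away and at 0 in all 3 ZP3 no Trim libraries, although none of its windows occurred in another gene. Its partners in the complex stood far above it: Eif3m averaged 7.37 ± 0.790 RPKM in ZP3 Trim-away and 3.32 ± 2.23 RPKM in ZP3 no Trim, and Eif3h averaged 18.7 ± 1.75 RPKM in ZP3 Trim-away and 15.4 ± 1.92 RPKM in ZP3 no Trim. A library at 0 could still hold up to 3 reads as far as counting error goes, which at the exon length of Eif3f (2891 bases) is 0.0519 to 0.0679 RPKM and in a copy of Eif1ad of 435 bases 0.345 to 0.451 RPKM.

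The eIF4 genes, which recognise the cap, unwind the leader and bridge it to the ribosome, had no common direction as measured. Of 11 tested, 5 had a positive and 6 a negative log2 fold change, with a median of -0.07, and none passed (limma; 1 higher and 0 lower at an unadjusted p under 0.05, beside 15.8% higher and 3.7% lower among all tested genes). Among all tested genes 67.3% were positive, with a median of 0.22. With median ratio scaling, quantile normalization or the length trend removed, 3 of the 11 eIF4 genes were positive and 8 negative. The helicase Eif4a1 had 187, 195 and 193 RPKM in ZP3 Trim-away, against 149, 163 and 179 RPKM in ZP3 no Trim (0.23 ± 0.11, limma adjusted p = 0.284). Its paralog Eif4a2 had 37.7, 35.2 and 29.4 RPKM in ZP3 Trim-away, against 22.9, 28.4 and 20.4 RPKM in ZP3 no Trim (0.50 ± 0.18, limma adjusted p = 0.184). Neither helicase overlapped between groups as measured, and both did after median ratio scaling. The log2 fold change of Eif4a1 was then 0.034, and it was 0.038 with quantile normalization and 0.049 with the length trend removed. The pseudogene Eif4a-ps4 was listed at 70.5, 69.6 and 76.0 RPKM in ZP3 Trim-away and 60.8, 61.1 and 69.2 RPKM in ZP3 no Trim, and 25.7% of the windows of Eif4a1 also occurred in other genes, so the level of Eif4a1 is uncertain.

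The scaffold genes were near or below the ZP3 no Trim level. Eif4g2, whose product lacks the binding site for eIF4E, averaged 67.0 ± 3.01 RPKM in ZP3 Trim-away and 74.6 ± 9.29 RPKM in ZP3 no Trim. Its pools overlapped as measured and were wholly lower in ZP3 Trim-away after median ratio scaling (59.0 to 64.3, against 69.8 to 88.3 in ZP3 no Trim). Eif4g3 averaged 3.76 ± 0.601 RPKM in ZP3 Trim-away and 4.94 ± 0.665 RPKM in ZP3 no Trim. Eif4g1 averaged 3.08 ± 0.309 RPKM in ZP3 Trim-away and 4.44 ± 1.73 RPKM in ZP3 no Trim, and none of the 3 scaffold genes passed. Eif4e3, a relative of the cap-binding protein, varied strongly between pools: 144, 112 and 98.7 RPKM in ZP3 Trim-away and 81.8, 115 and 196 RPKM in ZP3 no Trim, so that the ZP3 no Trim pools alone spanned the whole ZP3 Trim-away range. The eIF4E-binding proteins, which repress cap-dependent initiation, were low. Eif4ebp2 had 1.17, 1.44 and 1.37 RPKM in ZP3 Trim-away, against 0.168, 4.50 and 6.41 RPKM in ZP3 no Trim (-0.64 ± 0.64, limma adjusted p = 0.622), and Eif4ebp1, under the minimum, had 1.56, 1.97 and 1.73 RPKM in ZP3 Trim-away, against 0, 0.0455 and 0.576 RPKM in ZP3 no Trim.

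The factors named eIF5 and eIF6 act at different steps, and their genes differed in level. Eif5a encodes the hypusine-bearing protein that helps the ribosome through difficult peptide bonds; it had 248, 208 and 211 RPKM in ZP3 Trim-away and 159, 190 and 281 RPKM in ZP3 no Trim, with overlap. Its log2 fold change was 0.12 ± 0.20 (limma adjusted p = 0.774) and turned negative under 3 settings of scaling and length. Eif5b, the GTPase of subunit joining, had 19.5, 21.1 and 20.6 RPKM in ZP3 Trim-away and 25.3, 20.8 and 40.1 RPKM in ZP3 no Trim (-0.42 ± 0.24, limma adjusted p = 0.364), also with overlap as measured. After median ratio scaling the Eif5b pools did not overlap, at 17.7, 19.1 and 18.8 in ZP3 Trim-away and 27.2, 21.3 and 41.5 in ZP3 no Trim. Eif6, which keeps free large subunits from joining small ones, had 36.1, 41.1 and 41.9 RPKM in ZP3 Trim-away, against 34.5, 29.3 and 28.6 RPKM in ZP3 no Trim. Its pools did not overlap as measured, and its log2 fold change of 0.36 ± 0.15 did not pass (limma adjusted p = 0.238). With median ratio scaling the Eif6 pools overlapped, at 32.7, 37.2 and 38.3 in ZP3 Trim-away and 36.9, 30.0 and 29.6 in ZP3 no Trim.

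**Figure D3:**
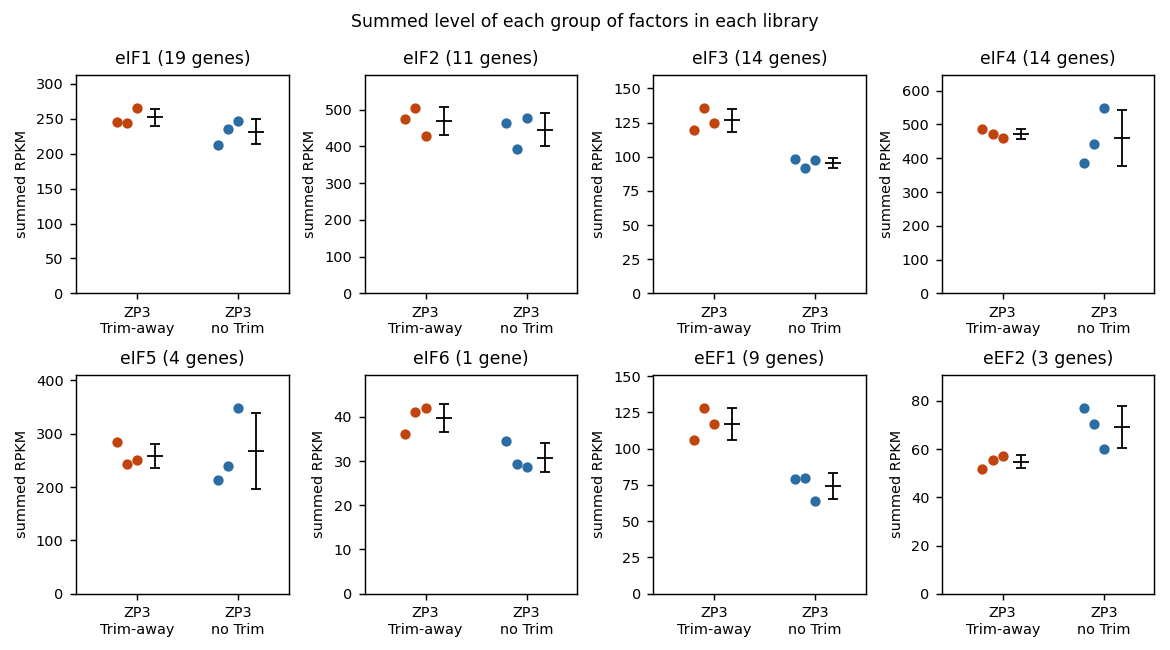
Summed RPKM of all genes of each group of factors, tested or not, 1 point per library, with the mean and SD (n = 3) beside the points and ZP3 Trim-away on the left. The eIF3, eIF6 and eEF1 sums are higher in every ZP3 Trim-away library than in any ZP3 no Trim library (eIF6 not after median ratio scaling), the eEF2 sum is lower in each, and the other sums overlap. The eEF2 sum is mostly the kinase gene Eef2k (mean 42.3 RPKM in ZP3 Trim-away and 56.5 in ZP3 no Trim), while Eef2 averaged 12.3 and 11.8. The eEF1 sum is mostly Eef1a1 (47.4 and 31.9) and Eef1e1 (41.8 and 22.05), which is not an elongation factor.

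All 7 tested eEF1 genes had a log2 fold change above 0, beside 67.3% of all tested genes, with a median of 0.56 (0.34 above that of all genes). At an unadjusted p under 0.05 4 of them were higher, beside 15.8% of all tested genes. Eef1g and Eef1akmt1, among the 4, reached the minimum mean through ZP3 Trim-away only, so they could enter only where it was higher. Neither the 7 of 7, nor the median, nor the 4 is therefore support for a difference of the group. With median ratio scaling, quantile normalization or the length trend removed 6 of the 7 lay above 0, and with the columns as deposited 5 of 7. The summed level of all 9 eEF1 genes, tested or not, was 106, 128 and 117 RPKM in ZP3 Trim-away, against 79.0, 79.7 and 63.9 RPKM in ZP3 no Trim, without overlap before or after median ratio scaling. Eef1a1 and Eef1e1 made up most of this sum. Eef1e1 was the one gene of the 52 that passed the test. Its product, AIMP3 or p18, is a scaffold protein of the complex of aminoacyl-tRNA synthetases, named for its likeness to elongation factor subunits, so that the gene called is not itself an elongation factor.

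Eef1e1 had 40.7, 45.9 and 39.0 RPKM in ZP3 Trim-away, against 21.8, 22.1 and 22.2 RPKM in ZP3 no Trim. The ZP3 no Trim pools were nearly equal and all ZP3 Trim-away pools lay far above them, with means of 41.8 ± 3.59 RPKM over 6376 reads in ZP3 Trim-away and 22.05 ± 0.252 RPKM over 4017 reads in ZP3 no Trim (SD, n = 3 each). The log2 fold change was 0.89 ± 0.15 (limma adjusted p = 0.0392). No window of its transcripts occurred in another gene. The call was lost without any 1 of the 3 ZP3 Trim-away pools, at limma adjusted p = 0.213, 0.289 and 0.214 without replicates 1, 2 and 3. It held without any 1 ZP3 no Trim pool, at 0.0414, 0.0396 and 0.049. It was also lost with median ratio scaling (0.0816), quantile normalization (0.0795), Trim21 left out of the totals (0.0724), the length trend removed (0.109), a pseudocount of 0.1 (0.0507) and no filter on low genes (0.141), while the log2 fold change stayed between 0.64 and 0.94 under every setting tried.

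The elongation factor proper followed with a smaller difference. Eef1a1, which delivers aminoacyl-tRNA to the ribosome, had 43.9, 48.6 and 49.9 RPKM in ZP3 Trim-away, against 34.5, 32.7 and 28.6 RPKM in ZP3 no Trim. The pools did not overlap, with a log2 fold change of 0.56 ± 0.15, which did not pass over all genes (limma adjusted p = 0.0903). It passed among genes averaging 10 RPKM or more (limma adjusted p = 0.0461, in a background of 10.6% called). The log2 fold change was smaller with median ratio scaling (0.36, limma adjusted p = 0.27), quantile normalization (0.37, 0.263) and the length trend removed (0.26, 0.468). Eef1a1 has 15 other genes that share windows with it, 28.1% of its own, so its level is uncertain. The subunits of its exchange factor were lower: Eef1b2 averaged 13.0 ± 2.84 RPKM in ZP3 Trim-away and 11.03 ± 5.84 RPKM in ZP3 no Trim, Eef1d averaged 8.15 ± 1.75 RPKM in ZP3 Trim-away and 6.35 ± 0.7997 RPKM in ZP3 no Trim, and Eef1g averaged 2.12 ± 0.590 RPKM in ZP3 Trim-away and 0.570 ± 0.988 RPKM in ZP3 no Trim. All 3 overlapped between groups. Eef1akmt1, a methyltransferase of eEF1A, had 1.34, 2.28 and 2.83 RPKM in ZP3 Trim-away, against 0, 0 and 0.972 RPKM in ZP3 no Trim (1.30 ± 0.42, limma adjusted p = 0.149), and Eef1akmt4, another, had 1.102, 1.14 and 1.26 RPKM in ZP3 Trim-away and 1.43, 0.991 and 0.820 RPKM in ZP3 no Trim (0.07 ± 0.33, limma adjusted p = 0.932).

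The 2 tested eEF2 genes had no common direction as measured. Eef2, the translocase, had 11.9, 11.4 and 13.6 RPKM in ZP3 Trim-away and 11.2, 10.3 and 13.9 RPKM in ZP3 no Trim, with a log2 fold change of 0.06 ± 0.21 (limma adjusted p = 0.90) that was negative under each of the 3 other scalings and with the length trend removed. Eef2k, the kinase that switches eEF2 off, was higher in level than its substrate. It had 39.9, 43.3 and 43.7 RPKM in ZP3 Trim-away, against 64.6, 60.0 and 45.0 RPKM in ZP3 no Trim, without overlap (-0.39 ± 0.16, limma adjusted p = 0.234). The ratio of Eef1a1 to Eef2 was 3.69, 4.26 and 3.67 in ZP3 Trim-away, against 3.08, 3.17 and 2.05 in ZP3 no Trim (two-sided exact permutation p = 0.1, 0.2 after adjustment over the 8 ratios). This ratio too was chosen after the values had been seen, so its p is no support for a difference.

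**Figure D4:**
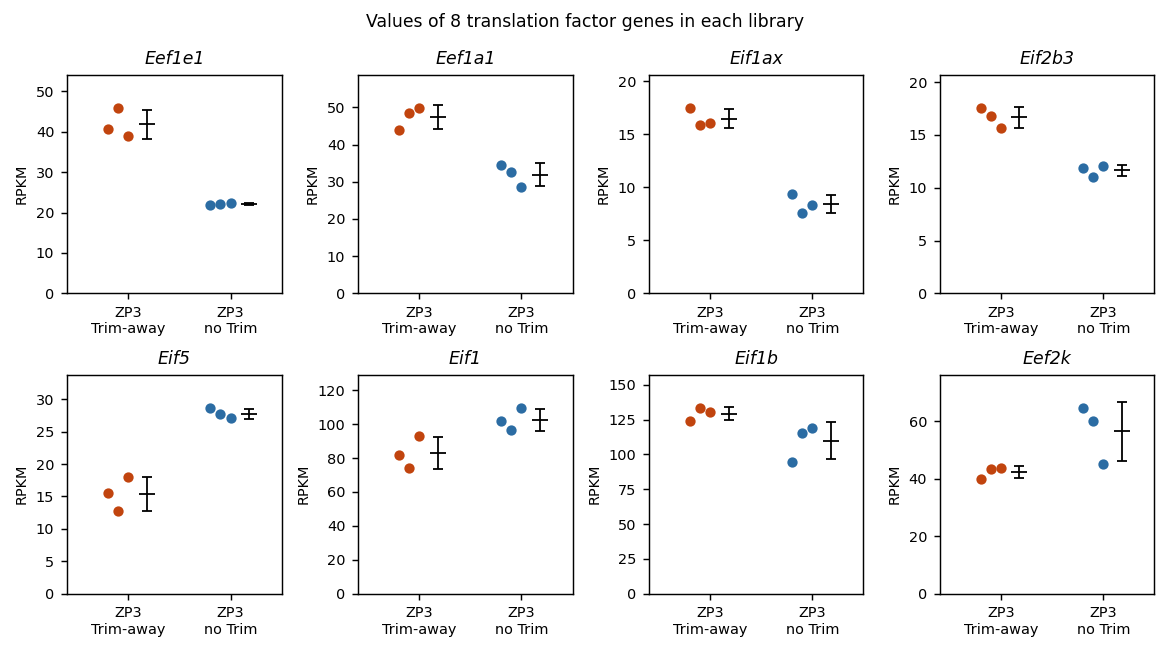
RPKM of 8 genes in each library (points), with the mean and SD (n = 3) beside them, ZP3 Trim-away on the left and axes starting at 0. The 8 were taken from the genes whose pools do not overlap between groups as measured. Their lack of overlap was fixed by this choice and is no support for a difference. Among all tested translation factor genes 44.2% did not overlap, beside 26.7% of all tested genes. After median ratio scaling the pools of Eif1b overlap. Eef1e1, Eef1a1, Eif1ax, Eif2b3 and Eif1b are higher in ZP3 Trim-away, and Eif5, Eif1 and Eef2k are lower.

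Set side by side, the groups of factors differed in their median log2 fold change: 0.56 for eEF1, 0.49 for eIF3, 0.48 for eIF1, 0.36 for eIF6, 0.25 for eIF2, -0.07 for eIF4, -0.17 for eEF2 and -0.42 for eIF5. With 1 to 11 genes in a group these medians are descriptions, and their order changed with the setting: eIF1 lay above eEF1 with the columns as deposited (0.75 for eIF1 and 0.50 for eEF1), and eIF3 lay above eEF1 with the length trend removed (0.31 for eIF3 and 0.26 for eEF1). Every one of them kept its sign under every alternative except that of eIF4, which was 0.07 with no filter on low genes. Some medians include genes that reached the minimum mean through ZP3 Trim-away only, and so could enter only where it was higher. These numbered 2 in eEF1 and 1 each in eIF3, eIF1 and eIF4. The median exon length was 3575 bases over the 52 genes and 3626 over all tested genes.

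**Figure D5:**
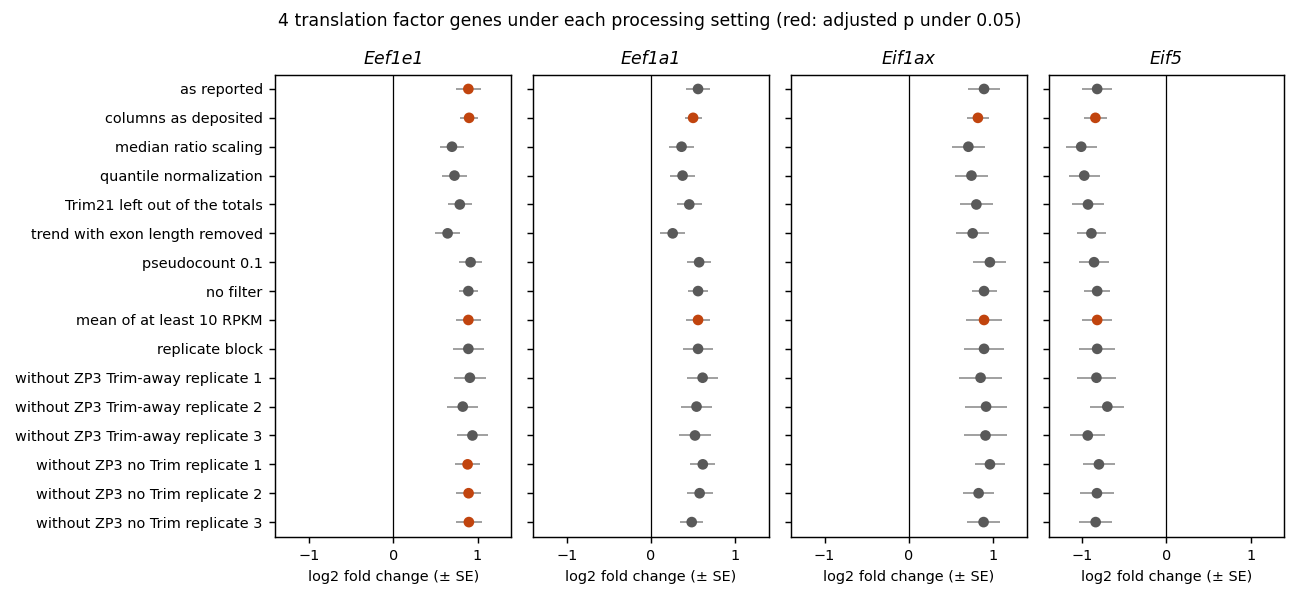
Log2 fold change with its standard error for Eef1e1, Eef1a1, Eif1ax and Eif5 under the reported setting (top row) and each alternative. Direction is the same in every row of a panel, while the adjusted p falls under 0.05 (red points) for Eef1a1, Eif1ax and Eif5 with the columns as deposited and among genes of at least 10 RPKM, and for Eef1e1 in 6 of the 16 rows. Those 2 settings have backgrounds of 37.3% and 10.6% called, and Eif1ax met the minimum of 10 RPKM through ZP3 Trim-away only. The log2 fold change of Eef1a1 runs from 0.26 (length trend removed) to 0.61 (without ZP3 no Trim replicate 1).

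Genes that act on these factors, or in neighbouring steps, were read from 5 lists, and none of their 28 tested genes passed (limma; 9 higher and 2 lower at an unadjusted p under 0.05, beside 15.8% higher and 3.7% lower among all tested genes). This split too depended on the scaling, at 3 higher and 4 lower of 26 with median ratio scaling, 5 and 4 of 27 with quantile normalization, 5 and 3 of 30 with Trim21 left out of the totals, and 4 and 4 of 28 with the length trend removed. The kinases and phosphatase subunits of eIF2 held both of the lower ones. Ppp1r15a, which brings a phosphatase to eIF2 after stress, had 26.0, 22.3 and 27.9 RPKM in ZP3 Trim-away, against 44.8, 40.6 and 53.0 RPKM in ZP3 no Trim (-0.83 ± 0.17, limma adjusted p = 0.0552). Ppp1r15a passed with the length trend removed (limma adjusted p = 0.0476) and without ZP3 no Trim replicate 2 (0.0441). It also passed among genes averaging 10 RPKM or more (0.0256, in a background of 10.6% called) and with the columns as deposited (0.00141, in a background of 37.3%). It did not pass with the 3 other scalings, a pseudocount of 0.1, no filter or the replicate number as a block. Nor did it pass without any other 1 pool. Eif2ak4, the amino acid sensor GCN2, had 5.62, 3.23 and 3.06 RPKM in ZP3 Trim-away, against 9.30, 8.65 and 6.35 RPKM in ZP3 no Trim (-0.89 ± 0.30, limma adjusted p = 0.154). Neither overlapped between groups, and 3 of the 6 genes of that list were tested.

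Of 11 mitochondrial translation factors 7 were tested, 4 of them higher and 0 lower at an unadjusted p under 0.05, with a median log2 fold change of 0.42, beside 15.8% higher and a median of 0.22 among all tested genes. With median ratio scaling, quantile normalization or the length trend removed, 2 of the 7 were higher at that p. Mtrf1, a mitochondrial release factor, had 6.47, 4.32 and 5.88 RPKM in ZP3 Trim-away, against 0.647, 1.45 and 2.03 RPKM in ZP3 no Trim (1.495 ± 0.34, limma adjusted p = 0.0704). Mtif3, a mitochondrial initiation factor, had 15.8, 14.9 and 14.9 RPKM in ZP3 Trim-away, against 7.95, 10.8 and 6.57 RPKM in ZP3 no Trim (0.80 ± 0.23, limma adjusted p = 0.108). In both genes every ZP3 Trim-away pool lay above every ZP3 no Trim pool. Of 12 termination, recycling and scanning genes 9 were tested (2 higher, 0 lower, median 0.28), of 9 diphthamide and hypusine genes 4 (2 higher, 0 lower, median 0.51), and of 7 genes acting on cap-dependent initiation 5 (1 higher, 0 lower, median -0.08). These counts changed with the scaling as well. With median ratio scaling they were 1 higher and 1 lower for the termination list, 0 and 0 for the diphthamide and hypusine list, and 0 and 1 for the list acting on cap-dependent initiation. The diphthamide and hypusine list also had 0 higher with quantile normalization and with Trim21 left out, and the cap-dependent list had 0 higher and 1 lower with the length trend removed. The higher one in the cap-dependent list was Mknk1, a kinase of eIF4E, with 10.4, 9.32 and 9.69 RPKM in ZP3 Trim-away, against 5.87, 6.85 and 4.49 RPKM in ZP3 no Trim (limma adjusted p = 0.162).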

How the data were processed

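RNA of 6 pools of zygotes was sequenced as single reads of 72 bases. Per the labels and the methods of the study, the authors checked reads with FastQC 0.11.9, trimmed them with Trimmomatic, aligned them with HISAT2, sorted them with SAMtools, counted them per gene with htseq-count and deposited RPKM values, averaging identifiers that share a symbol. The labels name build GRCm39 and the methods GRCm38. Such counting discards a read that fits more than 1 place. The deposited ZP3 no Trim column 2 was exactly 0.5 times column 1 in 2059 of 13202 genes and never below it, and column 3 likewise in 2090. Both were separated as 2 times the column minus column 1. Within 0.01 of a whole read, 95.1 and 95.3% of values were then whole for columns 2 and 3, against 11.3 and 10.5% as deposited. Exon lengths and transcripts came from GENCODE M21. Library totals and reads per gene were calculated back from the RPKM values and these exon lengths, so they are estimates. The members and lists were chosen with earlier results of these data known. limma 3.58.1 in R 4.3.3, with a trended prior spread, compared log2(RPKM + 1) for genes averaging 1 RPKM or more, two-sided, with Benjamini-Hochberg adjustment at 0.05, and was tested on simulated data. Fold changes on this scale understate those of low genes. Tables were made with Python 3.11.15, pandas 2.3.3, numpy 2.4.6 and matplotlib 3.10.9. Full statistics are given for each gene called, for the highest, most positive and most negative gene of each group of factors, and for each gene without overlap and averaging 10 RPKM or more. Outside these rules they are also given for Eif5b and, from the lists, for Ppp1r15a, Eif2ak4, Mtrf1 and Mtif3. The alternatives were the columns as deposited, 3 other scalings, removal of the trend with exon length (lowess span 0.5), another pseudocount, 2 other filters, the replicate number as a block and leaving out each pool.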

Additional observations from a re-analysis of the deposited data

How the results depend on the processing

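The counts of calls depended on the processing. With the columns as deposited, which give ZP3 no Trim replicate 1 most of the weight, 22 of 51 translation factor genes were called (17 higher, 5 lower) in a background of 37.3% (3707 genes). Among genes averaging 10 RPKM or more 4 of 27 were called (Eef1e1, Eef1a1 and Eif1ax higher, Eif5 lower), in a background of 10.6% (368 of 3459 genes). Eif1ax met this minimum through ZP3 Trim-away only, so its call is no support for its difference. With median ratio scaling 0 translation factor genes (7 higher and 6 lower at an unadjusted p under 0.05) and 12 genes in all (9 higher, 3 lower) were called, with quantile normalization 0 (7 and 6) and 21 (16 higher, 5 lower), with Trim21 left out of the totals 0 (9 and 4) and 19, with the length trend removed 0 (4 and 4) and 32 (13 higher and 19 lower, against 59 and 4 as reported), and with a pseudocount of 0.1 0 (13 and 3) and 19. With no filter 0 (17 and 4) and 0 genes in all were called (3323 at an unadjusted p under 0.05), a setting that adjusts over more genes. Leaving out 1 pool gave 0 to 2 translation factor genes and 0 to 300 genes in all: 0 and 0 without any 1 ZP3 Trim-away pool (5 to 8 higher and 1 to 2 lower translation factor genes and 1100 to 1238 genes in all at an unadjusted p under 0.05), and 162, 300 and 125 genes in all without ZP3 no Trim replicates 1, 2 and 3. Pools of the same number showed little shared deviation (correlations of deviations -0.06, 0.02 and -0.05), which cannot show whether they were collected together. With the replicate number as a block 0 translation factor genes (12 higher and 1 lower at an unadjusted p under 0.05) and 0 genes in all (1733) were called, with Eef1e1 at limma adjusted p = 0.0856. The median of the translation factor genes less that of all genes, 0.04 as reported, was 0.10 with the columns as deposited, -0.021 with a pseudocount of 0.1, 0.14 with no filter and -0.0030 to 0.13 with 1 pool left out. Of the 25 translation factor genes that the stated rules chose for full statistics, 20 kept their direction under every alternative. The sign turned for Eef1akmt4 (-0.058 as deposited, -0.039 with median ratio scaling, -0.13 with quantile normalization, -0.30 with the length trend removed, and -0.024 to 0.19 with 1 pool left out, the lowest without ZP3 no Trim replicate 3), for Eef2 (-0.13 with median ratio scaling, -0.094 with quantile normalization, -0.041 with Trim21 left out, -0.18 with the length trend removed, and -0.026 to 0.17 with 1 pool left out, negative without ZP3 Trim-away replicate 3 or ZP3 no Trim replicate 2), for Eif5a (-0.0795, -0.089 and -0.19 with median ratio scaling, quantile normalization and the length trend removed, and -0.059 to 0.35 with 1 pool left out, negative without ZP3 no Trim replicate 1), for Eif1b (-0.16 with the length trend removed) and for Eif2b1 (-0.15 to 0.073 with 1 pool left out, positive without ZP3 Trim-away replicate 3 and without ZP3 no Trim replicates 1 and 3). The cause was not tested.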
